A study of Mus musculus with 8 samples.

Results

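The replication-dependent histone genes were taken as all rows of the count table whose symbol begins with Hist, a cluster number and the letter h, which gave 62 of 23141 genes. They comprised 6 genes of the linker histone H1 and, among the core histones of the nucleosome, 15 genes of H2A, 17 of H2B, 12 of H3 and 12 of H4. RNA came from RAW264.7 cells, a transformed mouse macrophage line, without stimulation (0 min) and after stimulation with 100 ng/ml LPS, a cell wall component of Escherichia coli, for 15, 30, 45, 60, 75, 90 or 120 min. Each time point was 1 library of 1 culture, and no untreated culture was followed over the same time, so that differences between time points have no replicate check and the effect of LPS and that of time or handling cannot be told apart. The labels name the RNA fraction as cytoplasmic and the molecule as total RNA, and the methods describe total RNA. Ribosomal RNA was depleted instead of selecting poly(A) tails, which kept mRNAs without a tail in the libraries.

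Histone proteins package newly replicated DNA, and the mRNAs of the replication-dependent genes are made mainly in S phase. They are the mRNAs of animal cells that normally end without a poly(A) tail: a short stem-loop near the 3′ end is bound by the protein SLBP, the U7 snRNP directs the cut behind it, and the same structure serves in translation and in the rapid decay of these mRNAs when DNA synthesis stops. Transcription of the genes is coordinated by NPAT, and H2B promoters carry an octamer bound by POU2F1. Variant histones such as those encoded by H2afz, H3f3a and H3f3b are made outside S phase as well, from genes with polyadenylated mRNAs.

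The stem-loop is shown because it is the feature that separates these mRNAs from others. The pattern GG, 3 free bases, TT, 1 free base, T, 1 free base, A, 3 free bases and CC, read on the transcript strand and kept only where the bases before and after the loop could pair (G with T allowed), were found in annotated transcripts of 41 of the 62 genes (66.1%) and of 54 of 22852 other genes (0.236%). The motif began 21 to 58 bases after the stop codon (median 31). It was not found for 21 genes. Of these, 18 have fewer than 50 annotated bases after the stop codon or, in the case of the pseudogene Hist3h2bb-ps, no annotated stop codon. The other 3 were Hist1h2bc, Hist1h2bp and Hist2h2be. Sequences are from GENCODE vM21 (GRCm38), with the motif in capitals and the RefSeq coordinates of the gene.
Hist1h1d (chr13:23555032-23555807): tcaaacGGCTCTTTTCAGAGCCacccac
Hist1h2be (chr13:23583670-23621124): accaaaGGCTCTTTTCAGAGCCacccaa
Hist1h3c (chr13:23745042-23745521): aaaaaaGGCTCTTTTAAGAGCCacctaa
Hist1h3g (chr13:23535418-23535909): tttaaaGGCTCTTCTTAGAGCCacccat
Hist1h4m (chr13:21811746-21812150): actaaaGGCCCTTTTCAGGGCCatc
Hist4h4 (chr6:136803993-136804431): cacaaaGGCCCTTTTCAGGGCCcacaaa
Hist2h4 (chr3:96262934-96263317): cctaacGGCCCTTTTTAGGGCCaaccac
Hist1h4j (chr13:21735034-21735456): cctaaaGGTCCTTTTCAGGACCaccaca

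The stem differed between H4 and the other classes. The 16-base run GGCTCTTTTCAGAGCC was found in 22 genes, namely 3 of H1, 7 of H2A, 7 of H2B and 5 of H3, whereas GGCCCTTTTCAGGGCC was found in 6 genes, all of H4. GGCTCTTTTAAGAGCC occurred in 6 genes, including Hist1h2bb, Hist1h3c, Hist1h3e and Hist1h3f. The run of Hist1h3g was found in no other member, and that of Hist1h4j was shared with 1 further H4 gene, Hist1h4b.

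Promoters were available from RefSeq (GRCm38.p6, 250 bases before to 50 after the start) for 56 of the genes, and motifs were searched on both strands. CCAAT was present in every H1, H2A, H2B and H3 promoter and in 3 of 11 H4 promoters (27.3%), compared to 41% of 26969 other promoters. TATAAA was present in 32 of the 56 (57.1%, other promoters 15.6%). The octamer ATTTGCAT was present in 7 of 15 H2A promoters (46.7%) and 7 of 14 H2B promoters (50%), in none of H1, H3 and H4, and in 1.92% of other promoters. A κB-like motif, GGG and TTTCC with 2 free bases between them, was found in 1 of the 56 (1.79%, other promoters 1.89%). The octamer of 4 H2B genes that are named again below is printed in capitals, on the strand of the gene, with the coordinates of the promoter searched and the strand. It lies 48, 90, 67 and 59 bases before the start.
Hist2h2bb (chr3:96269450-96269749, +): gtgaaacctcATTTGCATacaagctcta
Hist1h2bb (chr13:23746484-23746783, +): tgagtctcttATTTGCATaaagcctttg
Hist1h2be (chr13:23585921-23586220, -): gtaagacttaATTTGCATaagactgcct
Hist1h2bg (chr13:23571150-23571449, +): tgagtcccttATTTGCATagaacctcta

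Total counts ranged from 100229997 to 159036125 per library, and a count of 0 allowed at most 0.0189 to 0.0299 cpm, a count scaled to the library total. The libraries at 15, 45, 75 and 90 min stood apart from the others: the ribosomal RNA precursor Rn45s took 12.96 to 20.5% of their counts, against 8.18 to 9.11% at 0, 30, 60 and 120 min. Of 10 macrophage markers, 9 were in the table, at a summed level of 5769 to 7110 cpm. Markers of T cells, B cells, fibroblasts, epithelium and germ cells summed to 0.0502 to 0.159 cpm, and 8 of these 15, including Col1a1, Epcam and Cd3g, had no count in any library. Histone genes resemble each other, and reads that matched more than 1 gene had been discarded, so that a count covers only the part of a gene that is its own. Only 6 of the 62 genes shared no 58-base stretch (the read length) with another gene, and in 21 genes less than 50% of these stretches were unique.

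The histone genes made up 1.501% of all counts at 0 min and 0.783% at 45 min (exact Clopper-Pearson 95% interval 0.782 to 0.785%, counting error only). Scaled by size factors, their summed count relative to the 0 min value was 0.926, 0.703, 0.594, 0.758, 0.829, 0.870 and 0.935 in the libraries from 15 to 120 min, in order of time. On this scale the sum was lowest at 45 min. The low depended on the library scale: with both spike-in transcripts the sum was 0.618 at 45 min and 0.617 at 60 min, and with the globin transcript alone 0.692 and 0.584. At 120 min the sum lay between 0.813 (total counts) and 0.961 (globin transcript) of its starting value over the 7 library scales compared. In RNA of a whole culture, fewer cells in S phase and less histone mRNA per cell cannot be told apart.

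Of the 62 genes, 60 reached a mean normalized count of 10 and were tested with the other genes (12164 in all). Hist1h1t, a testis H1, and Hist2h2aa2 did not reach it. A gene was called where its log2 ratio lay beyond 0.5 and the unadjusted p-value of an exact negative binomial test of the 2 libraries was below 0.05. Where a gene is said below to have fallen or risen at a time, it was called lower or higher there than at 0 min. At 45 min 31 of the 60 histone genes were lower than at 0 min (51.7%) and none was higher, where 1.9% of all genes tested were lower and 4.69% were higher. In the 30 min library 7 were lower (all genes 0.23%). At 60 min it was 5 (all genes 3%), after 75 min again 5 (all genes 4.56%), after 90 min 3 (all genes 5.75%) and after 120 min 1 (all genes 8.58%). None was called at 15 min, where 0.173% of all genes were lower, and none was higher at any of the 7 times, where 0.362, 1.45, 4.69, 4.23, 6.21, 7.23 and 9.44% of all genes were, in order of time. The test compares libraries and not conditions. The 45 min count was 5 with Benjamini-Hochberg adjustment, 11 when the libraries were scaled by both spike-in transcripts, 6 with the globin transcript alone, 12 once the dependence of each library on transcript length was removed and 42 without the 120 min library. Leaving out the 120 min library also moved the counts at 30 and 60 min to 16 and 9.

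The median log2 ratio over the 60 genes in the same order was −0.08, −0.50, −0.73, −0.36, −0.24, −0.18 and −0.08. The median over all genes tested lay between −0.01 and 0.02 at each of these times. At 45 min, 58 of the 60 ratios were negative, 52 were below −0.5 (all genes 5.76%, and at 30 and 60 min 29 and 16 of the 60 against 2.48% and 7.4% of all genes), and the range was −1.88 (Hist2h3b, a low H3 gene) to 0.27 (Hist2h3c2). For 55 of the 60 genes the 45 min library held the lowest value of the series on the size-factor scale, and for 54 or 55 with TMM factors or total counts. With both spike-in transcripts it was lowest for 26 and the 60 min library for 31, with the luciferase transcript for 35 and 22, and with the globin transcript for 6 and 47. Among the 50 abundant genes, those whose normalized count averaged at least 1000, 48 were lower at 30 than at 0 min, lower again at 45 min and higher at 60 than at 45 min, Hist1h2af and Hist1h3d being the exceptions. This order held for 21 of the 50 with both spike-in transcripts, for 29 with the luciferase and for 3 with the globin transcript, so that the order of 45 and 60 min depends on the library scale.

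**Figure D1:**
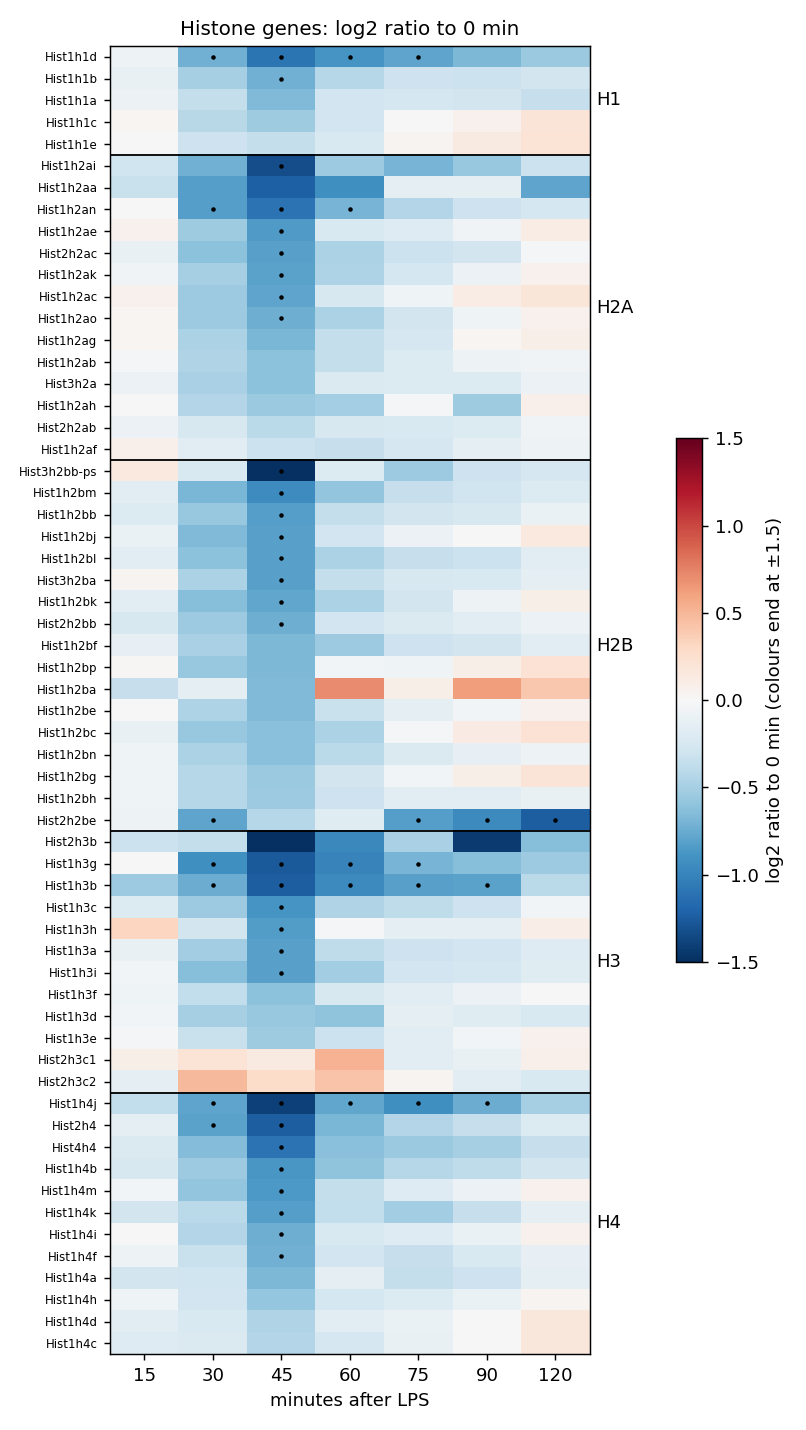
Log2 ratio to 0 min (colour) of the 60 tested histone genes (rows, by class and by their 45 min ratio) at 7 times after LPS (columns), 1 library each, with black dots at called values. Values are on the size-factor scale, where the 45 min column has the lowest value for 55 genes and 31 dots, while the 120 min column has 1 dot, for Hist2h2be.

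The later return was described with 2 further contrasts. Between 60 and 120 min no histone gene was called higher (all genes 4.47%) and Hist2h2be was called lower (all genes 4.74%), although 49 of the 50 abundant genes had the larger value at 120 min and the median log2 difference was 0.32. Between 45 and 120 min, a pair chosen after the values were seen, 27 of 60 were higher (all genes 5.81%) and 1, again Hist2h2be, was lower (all genes 7.8%). All 50 abundant genes had a larger value at 120 than at 45 min, which held on all 7 library scales. A value at 120 min above that at 0 min was seen for 20 of them, but for 2 with total counts and 8 with both spike-in transcripts. The 0 min and 45 min libraries are each shared between several of these contrasts.

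**Figure D2:**
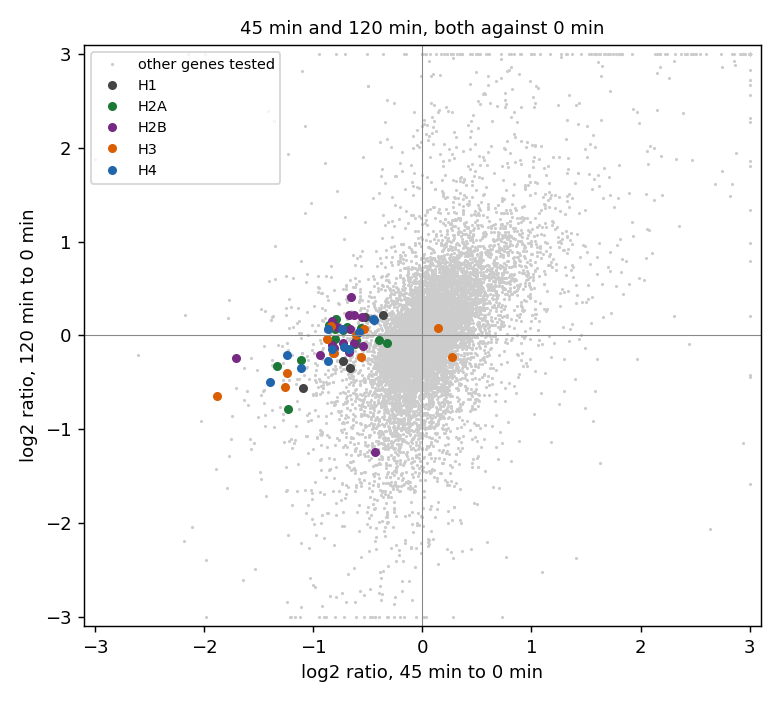
Log2 ratio of 45 min to 0 min (x) and of 120 min to 0 min (y) for the histone genes, coloured by class, and for the other genes tested (grey, values beyond ±3 drawn at the edge). Both axes share the 0 min library. The quartiles of the 60 histone ratios are −0.85 and −0.60 on the x axis and −0.23 and 0.08 on the y axis, and Hist2h2be sits at −1.24 on the y axis.

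Linker histones, which bind the nucleosome where DNA enters and leaves, split into 2 courses on the size-factor scale. Hist1h1d had the normalized counts 125153, 118563, 76196, 58674, 68038, 72526, 78677 and 84884 from 0 to 120 min. It fell at 30, 45, 60 and 75 min, with a ratio to 0 min of 0.469 at 45 min (95% interval 0.464 to 0.474, counting error only), and its log2 ratio was −0.67 at 90 min and −0.56 at 120 min without a call. Hist1h1b was called lower at 45 min alone, at 70985 normalized counts against 117267 at 0 min (log2 ratio −0.72). It was at −0.50 at 30 min and −0.43 at 60 min without a call. Hist1h1c was never called against 0 min, though it was called higher at 120 than at 45 min (log2 ratio 0.72). Its values were 98473, 100788, 73741, 68410, 80359, 98677, 102813 and 112453. Hist1h1e ran likewise, with log2 ratios of −0.31, −0.36 and −0.23 at 30, 45 and 60 min and 0.21 at 120 min. Both stood above their 0 min value at 75, 90 and 120 min on this scale, Hist1h1c only barely at 75 min (log2 ratio 0.00). Hist1h1a, Hist1h1b and Hist1h1d stayed below theirs throughout. With total counts Hist1h1c was at −0.33, −0.20 and −0.01 at these times, and Hist1h1e at −0.29, −0.12 and 0.01. With the globin transcript alone Hist1h1c and Hist1h1e were at −0.27 and −0.23 at 75 min. Hist1h1a, not called at any time, was at −0.66 at 45 min and −0.35 at 120 min. Hist1h1t had 0 to 6.66 normalized counts.

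H2A and H2B pair as dimers in the nucleosome, and their genes often lie side by side and share a promoter region. At 45 min 7 of 14 tested H2A genes and 8 of 17 tested H2B genes fell (all genes 1.9%). Among H2A genes, the most abundant in counts were Hist1h2ab, Hist1h2ao and Hist3h2a, of which Hist1h2ao fell at 45 min (18158 to 10950 normalized counts, log2 ratio −0.73), while Hist1h2ab and Hist3h2a were each at −0.61 without a call. Hist1h2an fell at 3 times, with the values 4520, 4489, 2538, 2091, 2791, 3332, 3635 and 3771. Its lowest value was 0.463 of that at 0 min (95% interval 0.439 to 0.488).

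Hist2h2bb was the member with the highest counts, with 282169, 238190, 194363, 170034, 231443, 242224, 251513 and 265938 normalized counts from 0 to 120 min. It was called lower at 45 min (ratio 0.603, 95% interval 0.599 to 0.606). At the other times it was also below its 0 min value, with a log2 ratio of −0.54 at 30 min, but without a call. The call was lost on each spike-in scale, with the edgeR dispersion trend and with the length trend removed. Hist1h2bb fell at 45 min as well (58826 to 33040, log2 ratio −0.83). Hist1h2be was at −0.66 without a call. Hist1h2bc, Hist1h2bg and Hist1h2bp were at log2 ratios of 0.22, 0.19 and 0.22 at 120 min. At 45 min they were at −0.63, −0.56 and −0.67, and none of these ratios to 0 min was called. Each of these genes was called higher at 120 than at 45 min (log2 ratios 0.85, 0.75 and 0.89).

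Hist2h2be went another way than the rest of its class. Its normalized counts were 599.7, 568.1, 345.6, 445, 528.9, 338, 311.1 and 252.9. It fell at 30, 75, 90 and 120 min, to a log2 ratio of −1.24 at 120 min, and was at −0.43 and −0.18 at 45 and 60 min without a call. The value at 120 min was the lowest of its series, where only 1 other tested gene, Hist2h3c2, also had its lowest value. Between the stop codon and the RefSeq end it has 2192 bases, the most among the members for which this length could be computed, and no stem-loop motif was found in it. With the edgeR dispersion trend the 120 min call was lost.

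H3 and H4 form the central tetramer of the nucleosome. At 45 min 6 of 12 H3 genes and 8 of 12 H4 genes fell (all genes 1.9%). Hist1h3g had the values 23273, 23393, 12314, 9716, 11620, 14363, 14967 and 15855. It fell at 30, 45, 60 and 75 min (log2 ratios −0.92, −1.26, −1.0 and −0.70) and was at −0.55 at 120 min without a call. Hist1h3b had 2341, 1604, 1388, 992.7, 1205, 1332, 1346 and 1777 normalized counts and fell at all times from 30 to 90 min. It was already at −0.54 at 15 min, the lowest ratio of any member at that time, without a call. Of the 3 most abundant H3 genes in counts, Hist1h3c fell at 45 min (25428 to 13857, log2 ratio −0.88), and Hist1h3f and Hist1h3e were at −0.61 and −0.53 without a call.

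Among H4 genes, Hist1h4j showed the strongest fall of the 50 abundant genes. Its normalized counts were 8234, 6371, 4751, 3122, 4794, 4337, 4946 and 5819, and the 45 min value was 0.379 of that at 0 min (95% interval 0.363 to 0.396). It fell at each time from 30 to 90 min. Hist2h4 fell at 30 and 45 min, with the values 82885, 75367, 47559, 34999, 51706, 61140, 65408 and 71583. Hist4h4 fell at 45 min, from 88681 to 41113, and stood at 69782 at 120 min (log2 ratio −0.35, not called). Hist1h4m fell at 45 min, from 57303 to 31529, and stood at 59943 at 120 min. After Benjamini-Hochberg adjustment over all genes tested, the exact test kept Hist1h4j (adjusted p = 0.00684), Hist1h3g (adjusted p = 0.0234), Hist2h4 (adjusted p = 0.0268), Hist1h3b (adjusted p = 0.0358) and Hist1h2ai (adjusted p = 0.0267) at 45 min.

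Hist1h2ai, Hist1h2af, Hist1h3d, Hist2h3b, the members named for a shared sequence or a level, and those of this paragraph were outside the naming rule and were picked with their values known. Hist2h3c1 and Hist2h3c2, H3 genes that lie close together and share most of their sequence, were the pair that did not have a negative ratio at 45 min, at log2 0.14 and 0.27, neither called. Their normalized counts ranged from 154.9 to 248.4 and from 165.3 to 272.7. Within the RefSeq coordinates of these genes only 15 and 0 stretches of 58 bases were unique. Hist3h2bb-ps, a pseudogene, had 100.9 normalized counts at 0 min, 30.5 at 45 min and 85.1 at 120 min and was called lower at 45 min. The testis gene Hist1h2ba had 9.04 to 24.0 normalized counts and was at 0.71 at 60 min without a call.

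The classes differed little in their sums. At 45 min the sum relative to 0 min was 0.621 for H1, 0.615 for H2A, 0.601 for H2B, 0.588 for H3 and 0.549 for H4. H4 was lowest and its 95% interval (0.546 to 0.552) was apart from that of H3 (0.583 to 0.592), where both cover counting error only and no replicate shows how far such sums vary between cultures. At 120 min the order was another one, with 0.899 for H1, 0.926 for H3, 0.935 for H4, 0.960 for H2B and 0.999 for H2A. The median log2 ratios of the genes at 45 min were −0.66, −0.76, −0.67, −0.82 and −0.78 for H1, H2A, H2B, H3 and H4. Their interquartile ranges overlapped, for instance −0.97 to −0.56 for H3 and −0.82 to −0.63 for H2B.

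**Figure D3:**
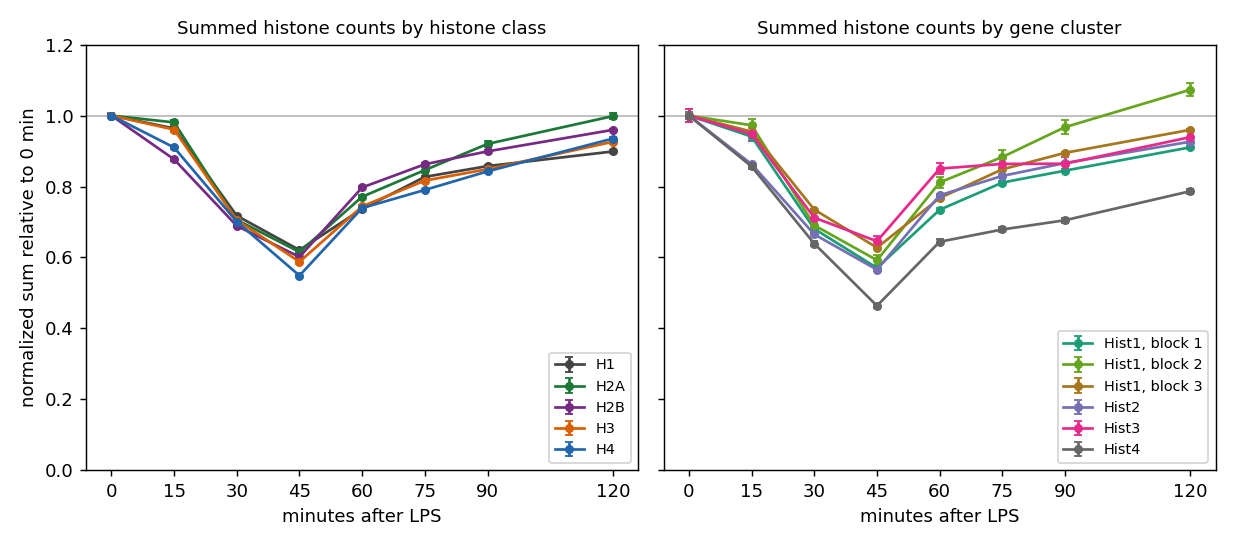
Summed normalized counts relative to 0 min by histone class (left) and gene cluster (right) at 8 times, 1 library each, with exact conditional binomial 95% intervals that cover counting error only. On this size-factor scale every line has its lowest point at 45 min, between 0.464 (Hist4) and 0.646 (Hist3).

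By position, 49 of the genes belong to the Hist1 cluster on chromosome 13, 9 to Hist2 on chromosome 3, 3 to Hist3 on chromosome 11 and 1 to Hist4 on chromosome 6. Hist1 falls into 3 blocks in GRCm38, with 14 genes at chr13:21715711-21812150, 5 at chr13:22035122-22043658 and 30 at chr13:23531044-23934913. At 45 min, 12 of 14 genes of the first block fell, 3 of 5 of the second and 10 of 29 tested genes of the third (all genes 1.9%). The median log2 ratios were −0.82, −0.73 and −0.66. Called or not, 14 of 14, 5 of 5 and 25 of 29 lay below −0.5 (all genes 5.76%). In Hist2 3 of 8 tested genes fell, in Hist3 2 of 3, and Hist4h4 fell. The difference between blocks was not tested, and neighbouring genes of a block share sequence. The summed count of the second block was 1.07 of its 0 min value at 120 min, that of the first block 0.911 and that of the third 0.960. At that time all 5 genes of the second block had ratios above 0, from 0.07 to 0.15 on the log2 scale, but none of the 5 did with total counts and 1 with both spike-in transcripts. Hist1h4j, Hist1h2an and Hist1h1b lie in the first block, Hist1h1d, Hist1h3b and Hist1h3g in the third.

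Genes with and without a stem-loop motif in the annotation had the same median at 45 min, −0.73 in 39 and in 21 tested genes. Of these, 21 and 10 fell (all genes 1.9%). Since the motif was missed mainly where the annotated transcript ends early, the comparison does not separate mRNAs with and without a stem-loop.

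Levels can be compared between genes only per length. Counts per kilobase of unique 58-base stretches and scaled to the library's total count (rpkm, the usual unit of reads per length and depth) were computed for the 31 genes whose annotated transcript covered at least 95% of the RefSeq span with 50 or more unique stretches. At 0 min 27 of them lay above 100 rpkm, with a median of 536 rpkm, where the median of the 14377 other genes with a count was 5.16 rpkm. Among these 31 genes the highest levels were those of Hist2h4 (2363 rpkm), Hist1h4h (2362 rpkm), Hist1h4m (2243 rpkm), Hist1h2bg (2198 rpkm) and Hist4h4 (2162 rpkm). Hist2h2bb, the member with the highest counts, was not among the 31, because its annotated transcript covered 77.3% of the RefSeq span. Hist1h3i (85.1%) and Hist1h2ab (92.5%) were left out likewise, so that the highest level of all members is not known from this ranking. The Poisson 95% intervals of Hist2h4 (2348 to 2378) and Hist1h4h (2343 to 2382) overlapped, while those of Hist1h2bg (2176 to 2220) and Hist4h4 (2149 to 2175) did not. These intervals cover counting error only, and differences of this size also depend on the annotated length. Within the 31, Hist1h1d was the highest H1 gene at 1935 rpkm, Hist1h3c the highest H3 gene at 1304 rpkm and Hist2h2ac the highest H2A gene at 498 rpkm. These ranks depend on trimming the transcripts to the RefSeq coordinates. With untrimmed transcripts Hist1h1d had 154.5 rpkm and Hist1h1a 1034 rpkm, and Hist1h3c had 700 rpkm and Hist1h3g 907 rpkm. Hist2h4 and Hist4h4 then had 473 and 306 rpkm, while Hist1h4m kept 2243 rpkm.

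At the low end were Hist3h2ba (43.4 rpkm), Hist2h2be (2.09 rpkm), Hist2h3b (1.80 rpkm) and Hist1h1t (0.0113 rpkm, from 1 count). For comparison, the variant genes H2afz, H3f3b and H3f3a had 954, 338 and 121 rpkm. The lengths of these genes and of the 14377 other genes were not trimmed, unlike those of the histone genes. H4 genes spanned 180 to 2363 rpkm and H2A genes 187 to 498 rpkm. The median was 150 rpkm when lengths were those of the longest transcript, and 309 rpkm with untrimmed transcripts.

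**Figure D4:**
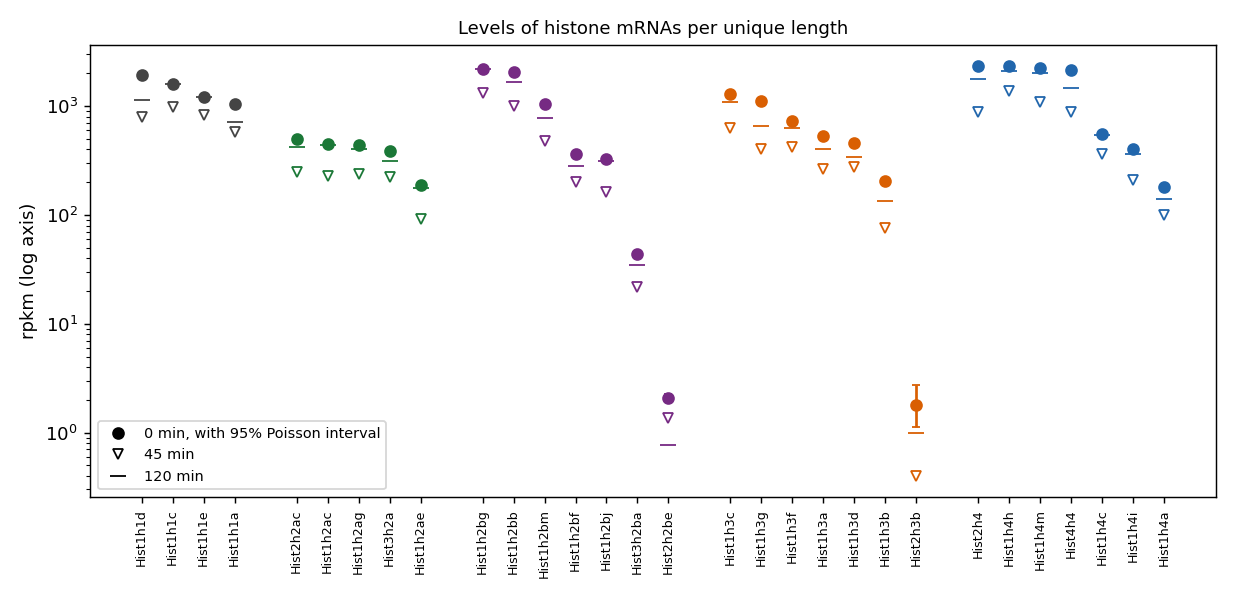
Levels per unique length (rpkm, log axis) of 30 histone genes by class at 0 min (filled, with Poisson 95% intervals, mostly hidden by the symbol), 45 min (triangles) and 120 min (dashes). Hist1h1t, near 0, is left out. The triangle lies below the filled symbol for each gene, and only Hist2h2be has its dash below its triangle.

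The genes that surround histone mRNA in its life were described from lists. Of 30 tested genes of histone mRNA transcription and 3′ end processing, 2 were higher at 45 min (6.67%, all genes 4.69%) and none was lower. These were Cstf3, a subunit of the cleavage stimulation factor, at log2 0.85, and Cdkn1a, the p21 inhibitor of cyclin-dependent kinases, at 1.97. At 120 min the same pair was higher (1.03 and 2.38), 6.67% of the list where 9.44% of all genes were. Ccne1 and Cdkn1b, encoding cyclin E1 and the inhibitor p27, were lower at that time (−0.83 and −1.19), 6.67% of the list where 8.58% of all genes were. Zfp473, encoding a zinc finger protein of the U7 complex, was lower at 60 and 75 min (−1.05 and −1.02), when 3% and 4.56% of all genes were. Slbp was at 0.12, 0.29, 0.48 and −0.01 at 30, 45, 60 and 120 min, without a call. Npat was at 0.31 at 45 min and Casp8ap2, which encodes a partner of NPAT, at 0.13, neither called.

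In the list of histone mRNA translation and decay, 2 of 24 genes were higher at 45 min (8.33%, all genes 4.69%), Zcchc11, a terminal uridylyltransferase, at 0.77, and Xrn1, the 5′ to 3′ exonuclease, at 0.76. Neither was called against 0 min at another time, and none of the list was called lower than at 0 min at any time. From 45 to 120 min, 1 of the 24 was called lower (4.17%, all genes 7.8%), Zcchc11 at −0.81. Of 23 chaperone and import genes none was called up to 60 min, and Supt6, an elongation factor that binds histones, was higher at 75 and 120 min (0.70 and 0.76), when 6.21% and 9.44% of all genes were.

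Of 10 tested histone genes outside the rule, 1 was called higher at 45 min (10%, all genes 4.69%). This was H3f3b, which encodes the variant H3.3. It rose at all times from 45 min on (0.78 at 45, 0.87 at 60 and 0.89 at 120 min). None of the 10 was called lower than at 0 min at any time (at 45 min 1.9% of all genes were). H1fx, with 32.5 normalized counts at 0 min and 20.3 at 45 min, was at −0.66 at 45 min without a call. The median of the 10 was −0.03 at that time. H2afz was at −0.03 at 45 min and H3f3a at 0.05. Of 28 genes of S phase none was called up to 60 min, and their median was −0.03 at 45 min. At 120 min 3 were lower, 10.7% of the list and close to the 8.58% of all genes: Cdc6, a loader of the replicative helicase (−1.36), Tk1, thymidine kinase (−1.15), and Rpa2, a subunit of the single-strand binding protein (−0.94).

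**Figure D5:**
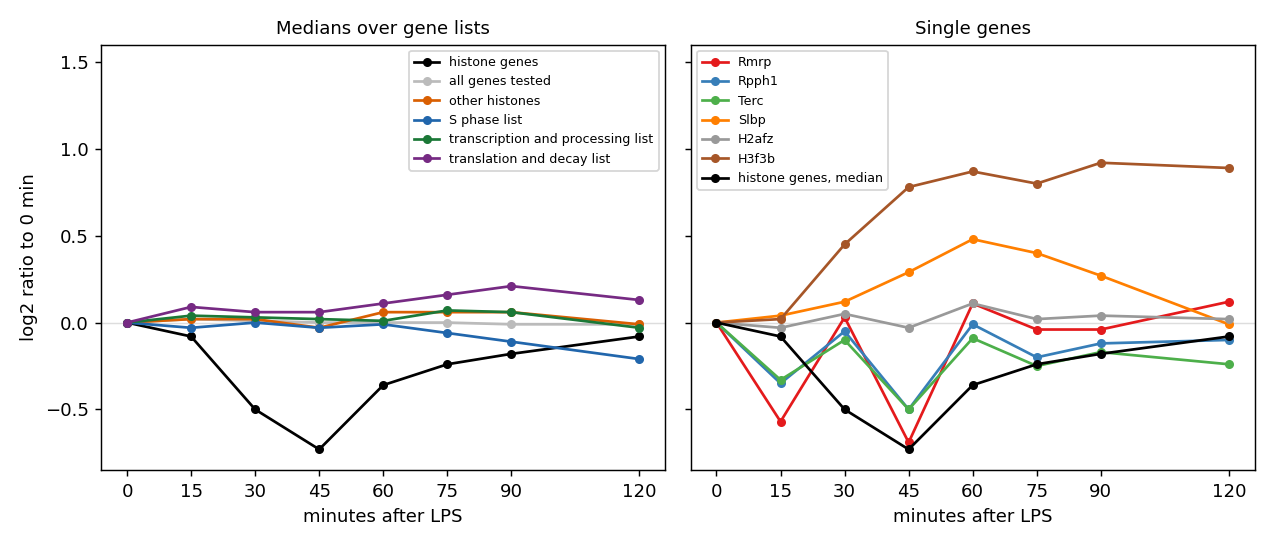
Median log2 ratio to 0 min of the histone genes, the gene lists and all genes tested (left), and log2 ratios of single genes beside the histone median (right), at 8 times with 1 library each. At 45 min the histone median is −0.73 and the S phase median −0.03, and Rmrp, Rpph1 and Terc are low at 15 and 45 min but not at 30 min.

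Other transcripts without a poly(A) tail and the composition of the libraries moved with part of this course. At 45 min the histone median of −0.73 was accompanied by Rmrp at −0.69, Rpph1 at −0.50, Terc at −0.50, Rnu11 at −1.05 and Rnu12 at −1.07. Of 7 tested RNAs of this list, 3 were called lower (42.9%, all genes 1.9%), namely Rmrp, Rnu11 and Rnu12. The list also had 1 called higher (14.3%, all genes 4.69%), Malat1, a long nuclear RNA, at 0.98. Called or not, 4 of the 7 lay below −0.5 and 2 above 0.5. At 15 min Rmrp was at −0.57 and Rpph1 at −0.35, with the histone median at −0.08. At 30 min Rmrp was at 0.03 and Rpph1 at −0.05, with the histone median at −0.50. Pairs within either group of libraries by Rn45s share were also compared. Within a group the shares still differed, at 12.96% at 15, 16.6% at 45 and 20.5% at 75 min. The histone median was −0.50 from 0 to 30 min. From 15 to 45 min it was −0.63, and 47 of 60 genes were below −0.5 (all genes 4.99%). Over the same pair Rmrp was at −0.12, Rpph1 at −0.15, Terc at −0.17, Rnu12 at −0.14 and Rnu11 at −0.60. The histone median was 0.49 from 45 to 75 min, with Rmrp at 0.65. The dependence on transcript length, read at the lengths of the histone transcripts, was −0.11 at 30 min and −0.23 at 45 min, and with it removed the histone median at 45 min was −0.52. The part of library composition in the remaining difference was not tested.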

How the data were processed

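RNA was depleted of ribosomal RNA, made into strand-specific libraries and sequenced on an Illumina HiSeq instrument. The authors aligned 58-base reads with Bowtie to RefSeq transcripts of mm10, allowing 2 mismatches, and discarded reads that matched more than 1 gene symbol (the Bowtie version is not given in the sources used here). The submitters' processing notes name CASAVA 1.8.2 and DESeq 1.10.1. The deposited values are raw counts per gene, and rows of the 2 spike-in transcripts (FLIVT, luciferase, and BGIVT, globin) were kept apart.

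From these counts, size factors and a parametric mean-dispersion relation were fitted blind over the 8 libraries, since each time point had 1, and pairs of libraries were compared with the exact negative binomial test of edgeR 4.0.16 (two-sided, R 4.3.3), with DESeq2 1.42.0 as an alternative for the dispersion. A gene was tested where its normalized count averaged 10 or more. Log2 ratios used a pseudocount of 0.5 normalized counts. The test was also run on simulated counts. Intervals are exact (Clopper-Pearson, conditional binomial or Poisson) and cover counting error only. Unique 58-base stretches were counted in GENCODE vM21 transcripts. For the levels of the histone genes alone these were trimmed to the RefSeq coordinates, a choice made after the values were seen. Of the members, 61 were matched by RefSeq accession and Hist3h2bb-ps by name.

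Members and gene lists were chosen with earlier results of these data known. Named histone genes are the 3 with the highest mean normalized count in each class, every H1 gene, those called at 2 or more times, and, where the mean reached 100, the 5 highest and 5 lowest at 120 min. Other list genes are named where called at any time, as are Slbp, Npat, Casp8ap2, H2afz, H3f3a and H3f3b. The alternatives were other library scales, dispersions, thresholds, filters and pseudocounts, removal of the length trend and leaving out libraries. Scaling by spike-ins, the time course on each of 7 library scales, the contrast of 120 with 45 min and the untrimmed length were added after the data were seen.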

Additional observations from a re-analysis of the deposited data

How the results depend on the processing

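No paired analysis was possible because each time point has 1 library. With 1 library a time point, depth limits little at these counts, while the spread between cultures is unknown. The median, the sum and the ratios of the named members at 45 min kept their direction under every alternative run. Of 825 alternative values of named members at 45 and 120 min, 782 kept their state, called or not called. A call was lost in 29 and gained in 14, and none reversed. Many of these members were not called in the main fit, so that the 782 include values that stayed uncalled. The cause of the changes below was not tested.

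Called lower at 30 min, 7 histone genes became 4 with total counts, 1 with both spike-ins, 1 with FLIVT, 0 with BGIVT, 3 with the edgeR dispersion, 0 with Benjamini-Hochberg adjustment, 0 with a log2 limit of 1, 4 with the 0, 30, 60 and 120 min libraries only, and 7 to 16 with 1 library left out. Called lower at 45 min, 31 became 11 with both spike-ins, 14 with FLIVT, 6 with BGIVT, 5 with Benjamini-Hochberg, 9 with a log2 limit of 1, 12 with the length trend removed, and 30 to 42 with 1 library left out. Called lower at 60 min, 5 became 12 with both spike-ins, 10 with FLIVT, 3 with the edgeR dispersion, 0 with Benjamini-Hochberg, 1 with a log2 limit of 1, 3 with the 4 libraries, and 4 to 9 with 1 library left out. Called lower at 120 min, 1 became 3 with totals without Rn45s, 0 with the edgeR dispersion and 2 with the length trend removed.

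The median at 30 min was −0.39 with BGIVT. At 45 min it was −0.92 with total counts, −0.51 with BGIVT and −0.52 with the length trend removed. At 60 min it was −0.46 with totals without Rn45s, −0.66 with both spike-ins, −0.64 with FLIVT and −0.74 with BGIVT. At 120 min it was −0.29 with total counts, −0.28 without Rn45s, −0.20 with both spike-ins and −0.23 with FLIVT. The log2 ratio of the summed members at 30 min (−0.51) was −0.54 with total counts, −0.53 with TMM, −0.54 without Rn45s, −0.43 with both spike-ins, −0.44 with FLIVT, −0.40 with BGIVT and −0.44 with the length trend removed. At 45 min (−0.75) it was −0.94, −0.77, −0.81, −0.70, −0.73, −0.53 and −0.58 under these settings. In the lists of pathway and variant histone genes, 5 called higher at 45 min became 1 with total counts, 2 without Rn45s, 2 with FLIVT, 3 with the edgeR dispersion, 1 with Benjamini-Hochberg, 1 with a log2 limit of 1, 3 with the length trend removed and 5 to 7 with 1 library left out, and 0 called lower became 1 with the length trend removed. The median level of 536 rpkm was 150 with the longest transcript and 309 untrimmed.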
